A study of Mus musculus with 10 samples.

Results

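The enzymes that make superoxide and those that clear it were followed in mouse ventricle after aldosterone, through 9 genes. They are the oxidase subunits Cybb, Cyba, Ncf1, Nox4 and Rac2, the superoxide dismutases Sod1, Sod2 and Sod3, and catalase (Cat). Every array probe whose accession belongs to these genes was taken, which gave 12 probes out of 39429, while 26581 probes carried a symbol, for 20144 genes. Cyba, Nox4 and Cat had 2 probes each, and 11 of the 12 probes were bright enough to enter the fit.

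The hearts came from male mice in 2 groups, mice given aldosterone and untreated mice as control, with 5 mice in each and a labelled duration of 7 days for both. The labels call the aldosterone hearts Ctrl + aldosterone and the untreated hearts Ctrl, and name no transgene, strain, age, dose or route. Ventricle RNA labelled with Cy5 was hybridised to 2-colour Agilent arrays against 1 Cy3 reference, RNA pooled from liver, brain, heart, kidney and spleen. Scanner files of 9 arrays were analysed (4 aldosterone, 5 control), and the authors' deposited value table added aldosterone 4, whose scanner file was not analysed here. All levels are log2 ratios of heart over pooled reference after normalization. A value below 0 thus means a ratio below the level that normalization sets to 0, and not always less raw signal in Cy5 than in Cy3. All differences are aldosterone minus control on that log2 scale.

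NADPH oxidases pass electrons from NADPH across a membrane to oxygen and release superoxide. In phagocytes the catalytic subunit gp91phox (Cybb) sits in the membrane with p22phox (Cyba), and is switched on when p47phox (Ncf1) and the small GTPase Rac2 join it from the cytosol, whereas Nox4 needs p22phox alone and runs without those cytosolic partners. Superoxide dismutases turn superoxide into hydrogen peroxide in the cytosol (Sod1), the mitochondrial matrix (Sod2) and the extracellular space (Sod3), and catalase, mostly in peroxisomes, breaks that peroxide down. Aldosterone acts through the mineralocorticoid receptor, and oxidase activity has been studied as one of its effects in heart and vessels.

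The mineralocorticoid and glucocorticoid receptors bind palindromes of the half-site TGTTCT, so the stretch before each gene's start was searched for it. RefSeq promoter sequence (assembly GRCm38.p6) was at hand for 7 of the 9 genes, and the 250 bases before the start were read on both strands. Only Ncf1 and Cat held the half-site, 1 match each, and it occurs in 16.1% of 32841 promoter windows of the same length. Both windows are printed here for that reason, 5′ to 3′ along the gene, with the half-site in capitals in its reverse complement AGAACA.
Ncf1: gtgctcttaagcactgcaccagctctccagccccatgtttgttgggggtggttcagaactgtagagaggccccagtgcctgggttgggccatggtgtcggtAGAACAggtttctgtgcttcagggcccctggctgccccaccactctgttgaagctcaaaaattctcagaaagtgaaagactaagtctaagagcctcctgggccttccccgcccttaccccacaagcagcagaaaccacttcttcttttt
Cat: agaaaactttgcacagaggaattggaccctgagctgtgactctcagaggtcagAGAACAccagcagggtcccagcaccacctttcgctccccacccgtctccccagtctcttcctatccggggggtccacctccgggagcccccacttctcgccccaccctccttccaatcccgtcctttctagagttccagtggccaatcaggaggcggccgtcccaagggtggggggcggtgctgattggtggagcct
The Ncf1 window is chr5:134229626-134229875 on the minus strand, with the first base of the match 149 bases before the start. The Cat window is chr2:103485154-103485403, also on the minus strand, and its match begins 197 bases before the start. The full element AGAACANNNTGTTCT, which holds the half-site on each strand, was in none of the 7 windows and in 0.00913% of all windows. These matches describe the letters in the windows and are not binding sites.

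The Sod1 window alone held the antioxidant response element core TGACNNNGC, the letters recognised by NRF2 with its partners, and it is shown for that match (capitals, reverse complement). The core was in 10.2% of windows.
Sod1: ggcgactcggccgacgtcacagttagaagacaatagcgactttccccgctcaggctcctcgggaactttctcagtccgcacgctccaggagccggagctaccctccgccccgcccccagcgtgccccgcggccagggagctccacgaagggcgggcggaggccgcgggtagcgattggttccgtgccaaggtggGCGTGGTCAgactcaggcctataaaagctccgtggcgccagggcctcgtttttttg
This window is chr16:90220512-90220761 on the plus strand, with the match beginning 56 bases before the start. The GC box GGGCGG occurred 4 times each for Sod1 and Sod2, 2 times for Cyba and 1 time each for Ncf1, Nox4 and Cat, on either strand, against 32.7% of windows with at least 1. The Ets core GAGGAA, read by the myeloid factor PU.1 among others, was found 1 time each for Sod2 and Cat, and 23.3% of windows held it. The Cybb window had none of the 5 motifs.

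Some facts of the whole data set bear on every value below. The scanner marked 64.3% to 70.9% of an array's probes as well above background for Cy5, whose median signal was 118.5 to 146.25 units over a local background of 57 to 59 units. The first principal component, 32.5% of the variance, placed aldosterone 1 and 2 with control 2 and 5 on its positive side, and aldosterone 3 and 5 with control 1, 3 and 4 on its negative side, so hearts of both groups lay on each side. Each of 4 slides held arrays of both groups, but aldosterone arrays were at position 2 and control arrays at positions 1 or 4, so group and array position cannot be told apart. As for tissue identity, all 11 cardiomyocyte markers were well above background on every array and 7 of them were saturated on all 9. The scanner arrays gave 0 of 26877 probes at an adjusted p under 0.05 in limma (0%), with 1642 at an unadjusted p under 0.05 (6.11%). The value table of 10 hearts gave 35 (0.13%), with 2145 at an unadjusted p under 0.05 (7.98%).

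None of the 8 genes that could be compared differed between aldosterone and control hearts beyond the spread between hearts, and Sod2 was saturated. Among the 10 probes with a measurable difference, 0 passed at an adjusted p under 0.05 in limma, 0 had an unadjusted p under 0.05, and the smallest adjusted p was 0.942. The value table likewise gave 0 member probes at either threshold. In no member did the groups separate, in either source, while 2.03% of probes on the scanner arrays and 1.91% in the value table had groups without overlap. On the scanner arrays the largest difference, that of the main Cyba probe, was -0.13. The 95% intervals of all 10 probes there lay between -0.37 and 0.38. Levels from 0.774 to 1.30 times the control level thus lie within the scanner intervals. The value table gave wider intervals for dim probes: -0.17 to 0.79 for Ncf1, -0.54 to 0.59 for Nox4 and -0.53 to 0.46 for Cybb. Interval width depends on the number of arrays and on the spread between hearts. An exact permutation test of 4 against 5 hearts has 126 splits and cannot go below p = 0.00794.

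**Figure D1:**
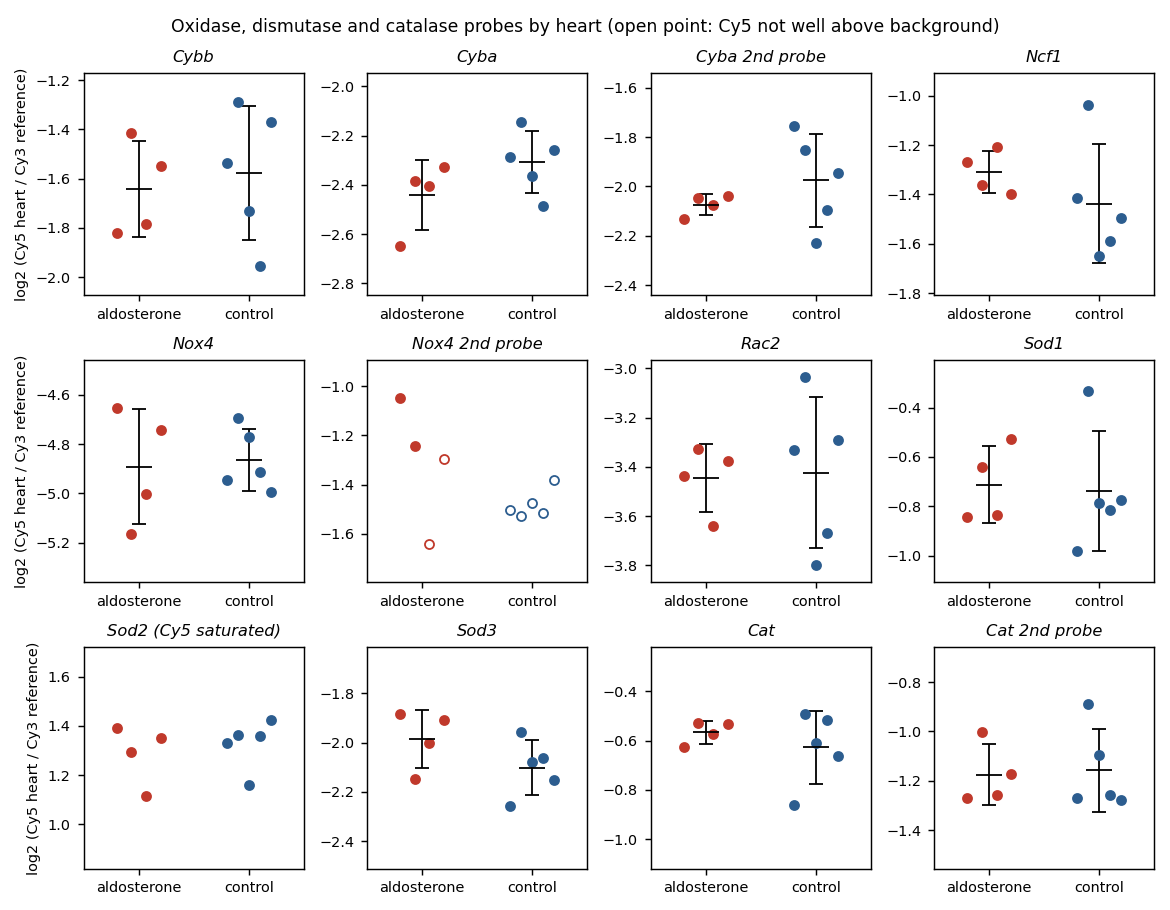
Log2 ratio of Cy5 heart over Cy3 pooled reference for each probe of the 9 genes, 1 point per heart (4 aldosterone, 5 control), with bars for the mean and SD over hearts. Axes differ in position between panels, and no mean is drawn where Cy5 was saturated (Sod2) or mostly not above background (2nd Nox4 probe). The aldosterone and control points overlap in every panel.

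Cybb, the catalytic core of the phagocyte oxidase, read -1.82, -1.41, -1.78 and -1.55 in aldosterone 1, 2, 3 and 5, against -1.54, -1.29, -1.73, -1.95 and -1.37 in control 1 to 5. Control 2 was highest and control 4 lowest, so all aldosterone hearts lay inside the control range. The difference was -0.07 (SE 0.14, 95% interval -0.37 to 0.24, limma adjusted p = 0.999; exact permutation p = 0.683). The value table gave -0.03 (SE 0.22) with 5 hearts a group. The Cybb signal was low, with 74 to 153 units of Cy5 above background on aldosterone arrays and 65.5 to 167 on control arrays, and its spread within groups (SD 0.24) exceeded that of 91.1% of the probes tested.

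Cyba, which stabilises both Cybb and Nox4 in the membrane, gave 3367 to 6093.5 units of Cy5 above background on aldosterone arrays and 4568 to 5801.5 on control arrays. Its main probe read -2.65, -2.38, -2.41 and -2.33 in aldosterone 1, 2, 3 and 5, against -2.29, -2.15, -2.36, -2.49 and -2.26 in control 1 to 5. The lowest value belonged to aldosterone 1 and the next lowest to control 4. The difference was -0.13 (SE 0.09, 95% interval -0.32 to 0.05, limma adjusted p = 0.942; exact permutation p = 0.190). Without aldosterone 1 it was -0.06 (SE 0.08). The second Cyba probe averaged -2.07 ± 0.04 with aldosterone (SD, n = 4) and -1.98 ± 0.19 in control hearts (SD, n = 5), a difference of -0.10 (SE 0.09, limma adjusted p = 0.994). In the value table the main and second probes differed by -0.10 and -0.11. Both Cyba probes thus had the same sign in both sources, with every interval including 0.

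Ncf1, the organiser that carries the cytosolic complex to the membrane, read -1.27, -1.36, -1.21 and -1.40 in aldosterone 1, 2, 3 and 5. The control hearts read -1.41, -1.04, -1.65, -1.59 and -1.50 for control 1 to 5. Control 2 lay above all aldosterone hearts and the other 4 control hearts lay below them. The difference was 0.13 (SE 0.11, 95% interval -0.12 to 0.38, limma adjusted p = 0.990; exact permutation p = 0.349), and it was 0.31 (SE 0.22, limma adjusted p = 0.788) in the value table. Its size depended on single control hearts: it was 0.08 without control 3 (limma adjusted p = 0.935) and 0.23 without control 2 (limma unadjusted p = 0.011, adjusted p = 0.561; smallest adjusted p over all alternatives tried). The Ncf1 signal was near background, with 52.5 to 69 units of Cy5 above background on aldosterone arrays and 35 to 80.5 on control arrays, and with the stray local backgrounds left as deposited its difference was -0.02.

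Rac2, the GTPase that binds the assembled oxidase in blood cells, read -3.44, -3.33, -3.64 and -3.38 in aldosterone 1, 2, 3 and 5, against -3.33, -3.04, -3.80, -3.67 and -3.29 in control 1 to 5. The aldosterone hearts sat inside the control range, whose ends were control 2 and control 3. The difference was -0.02 (SE 0.14, 95% interval -0.33 to 0.29, limma adjusted p = 0.999; exact permutation p = 0.897). Its sign turned in the value table (0.02) and with slide as a block (0.02). The Rac2 probe is printed in 10 spots, which shows the error between spots of 1 array and not that between arrays. Spots of 1 array had an SD of 0.0748 to 0.138, with 7 spots left on aldosterone 1. The SD between hearts was 0.136 with aldosterone and 0.307 in control hearts (0.25 pooled within groups). Each heart value is the mean of its spots, so the SD of single spots overstates the spot error in that value. The 2 kinds of SD are therefore not on the same footing. With 1 array per heart, heart and array cannot be told apart.

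The phagocyte subunits shared some hearts at the ends of their ranges but not one order. Control 2 was the highest of the 9 hearts on the main probes of Cybb, Cyba, Ncf1 and Rac2, and also for Sod1 and both Cat probes, while control 1 was highest on the second Cyba probe. The lowest heart was control 4 for Cybb, aldosterone 1 for Cyba, and control 3 for Ncf1, Rac2 and the second Cyba probe. The mean over 18 macrophage and monocyte markers was highest in control 2, at -0.64, and lowest in control 4, at -1.46. That mean ranged from -1.12 to -0.81 over aldosterone hearts and from -1.46 to -0.64 over control hearts. Among its members, 14 were higher and 4 lower with aldosterone (median 0.09; 16 and 2 in the value table, median 0.17) and 0 passed in limma, while for all genes tested the median was 0.01 and 52.3% were higher. Adgre1, the gene of the F4/80 macrophage antigen, differed by 0.42 (SE 0.19), the mannose receptor gene Mrc1 by 0.26 (SE 0.15) and the complement gene C1qb by 0.31 (SE 0.19), each with a limma adjusted p of 0.815 or above. All 18 were well above background on at least 4 arrays and 17 of them on every array. In ventricle RNA, fewer cells of a type and less RNA per cell cannot be told apart. The part of macrophage number in the subunit values was not tested.

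**Figure D2:**
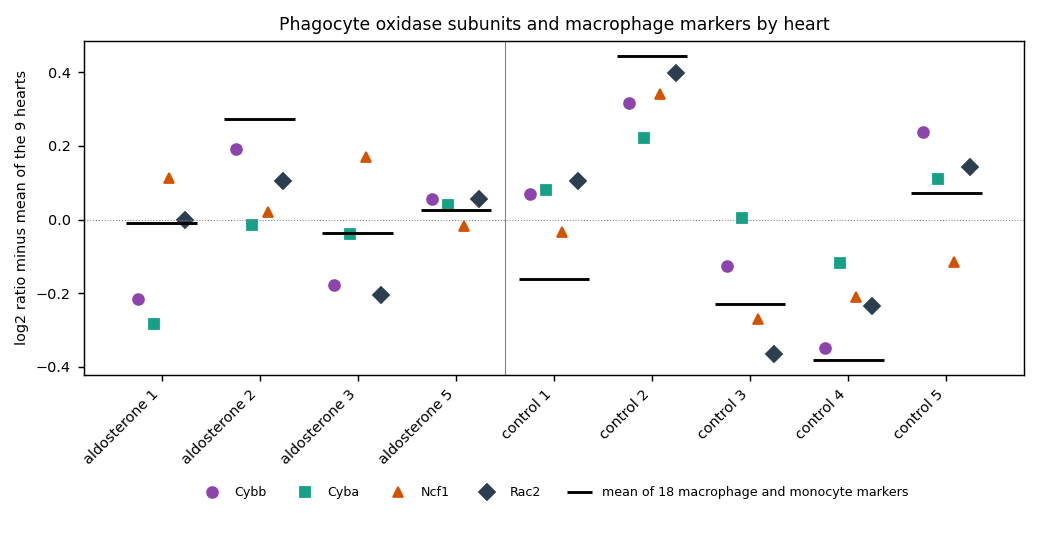
Log2 ratio of the main Cybb, Cyba, Ncf1 and Rac2 probes in each heart, minus the gene's mean over the 9 hearts, with aldosterone hearts on the left and control hearts on the right. Black bars give the mean of 18 macrophage and monocyte markers, centred the same way. Control 2 is highest for all 4 genes and for the marker mean.

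Other leukocyte markers gave differences of both signs on the scanner arrays. Of 11 neutrophil markers tested, 8 were higher and 3 lower (median 0.05; 10 and 1 in the value table, median 0.06). Csf3r was at -0.16 (SE 0.07; saturated on 4 arrays), the calprotectin gene S100a8 at 0.45 (SE 0.22) and Retnlg at 0.26 (SE 0.14). The neutrophil metalloproteases Mmp8 and Mmp9 were not well above background on any array. Of 12 pan-leukocyte and lymphocyte markers, 5 were higher and 7 lower (median -0.07; 6 and 6 in the value table). Cd52 was at 0.26 (SE 0.15) and Cd53 at 0.11 (SE 0.07). Their mean ranged from -2.53 to -2.35 in aldosterone hearts and from -2.59 to -2.28 in control hearts. No gene of these lists passed in limma.

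Nox4, the oxidase that makes mainly hydrogen peroxide and is found in heart muscle and vessel cells, gave 2 probes that did not rank the hearts alike. The main probe read -4.65, -5.16, -5.00 and -4.74 in aldosterone 1, 2, 3 and 5, against -4.94, -4.69, -4.77, -4.91 and -4.99 in control 1 to 5. Aldosterone hearts held both ends of the range, and the control hearts lay between them. The difference was -0.03 (SE 0.11, 95% interval -0.26 to 0.21, limma adjusted p = 0.999; exact permutation p = 0.849). In Cy5 the probe stood 31 to 58 units above background on aldosterone arrays and 31.5 to 74 on control arrays, while the pooled reference gave 1398 to 1569 units in Cy3. In ventricle the probe was thus near the lower limit of detection, and its values depend on the background treatment: the difference was -0.33 with backgrounds as deposited, 0.01 with no background correction and 0.02 in the value table. The value table has lower ratios throughout, -6.48 to -5.53 in aldosterone hearts and -6.46 to -5.29 in control hearts.

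The second Nox4 probe was well above background on 2 of 4 aldosterone arrays and on 0 of 5 control arrays, and it was not tested. Its Cy5 signal above local background was 52, 45.5, 5 and 21.5 units in aldosterone 1, 2, 3 and 5, against 9.5, 13, 13, 9.5 and 22.5 units in control 1 to 5. Aldosterone 1 and 2 stood above every control array, aldosterone 5 was level with control 5, and aldosterone 3 was the lowest of all. In the value table aldosterone 4 was also low, at -5.07, beside -1.37, -1.91, -5.40 and -3.64 in aldosterone 1, 2, 3 and 5 and -5.33, -4.52, -3.99, -3.89 and -3.90 in control 1 to 5. On the main probe the same aldosterone 2 heart had the least Cy5 signal of the 9, 31 units.

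**Figure D3:**
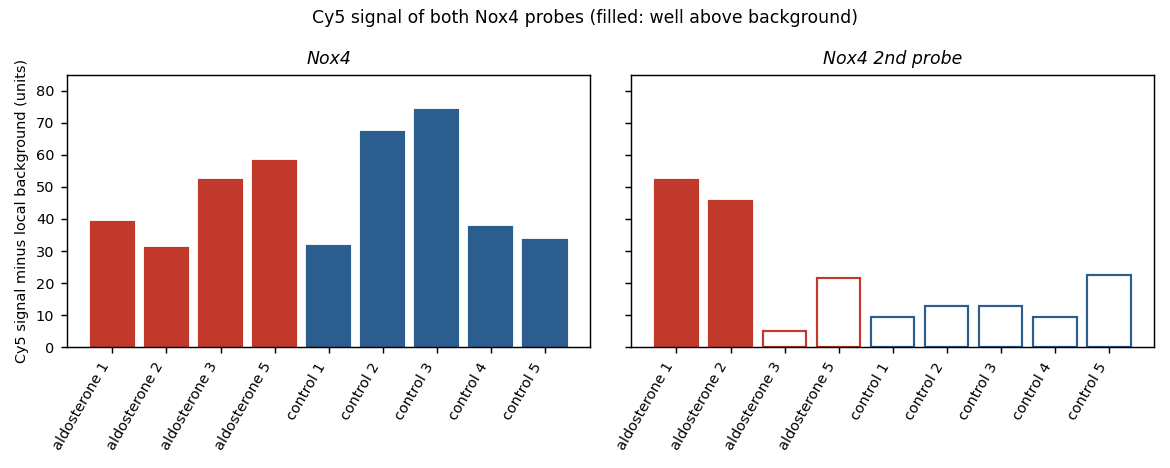
Cy5 signal minus local background, in scanner units, for both Nox4 probes on each array, aldosterone arrays in red and control arrays in blue. Filled bars were well above background. The main probe is filled on all 9 arrays, and the second on aldosterone 1 and 2 alone.

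The rest of the oxidase family gave differences of both signs. Of 17 further NADPH oxidase genes, 15 were on the array and 12 passed the filter, of which 7 were higher and 5 lower with aldosterone (median 0.00329) and 0 passed in limma. Their differences ran from -0.05 for the chaperone gene Cybc1 to 0.10 (SE 0.20) for Ncf4, the p40phox subunit. By the rule of smallest p, Rac3 differed by 0.03 (SE 0.06) and the catalytic homologue Nox1 by -0.03 (SE 0.07). Among 14 regulators of oxidase assembly, 10 were higher and 4 lower (median 0.05), and 0 passed. Pla2g4a, the cytosolic phospholipase A2 that releases arachidonic acid, had the smallest p of the list, with a difference of 0.37 (SE 0.07, limma adjusted p = 0.146) and 0.61 in the value table. Prex1, an exchange factor for Rac, differed by 0.18 (SE 0.08) and the protein kinase C gene Prkca by 0.15 (SE 0.08), with adjusted p of 0.805 and 0.904 in limma.

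Sod1, the copper and zinc enzyme of the cytosol, gave 26373 to 36905 units of Cy5 above background on aldosterone arrays and 24843 to 39387.5 on control arrays, below saturation. It read -0.85, -0.64, -0.84 and -0.53 in aldosterone 1, 2, 3 and 5, against -0.98, -0.33, -0.79, -0.82 and -0.77 in control 1 to 5. Both the highest and the lowest heart were control hearts, control 2 and control 1. The difference was 0.03 (SE 0.12, 95% interval -0.24 to 0.29, limma adjusted p = 0.999; exact permutation p = 0.889). It was -0.01 in the value table.

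Sod2, the manganese enzyme of the mitochondrial matrix, could not be compared. Its Cy5 signal was saturated on all 9 arrays, at 65206 or 65207 units, so differences in Sod2 RNA between hearts do not show in the ratio, which varies with the Cy3 signal and the normalization. Those ratios were 1.12 to 1.39 on aldosterone arrays and 1.16 to 1.42 on control arrays. By the mean ratio on the scanner arrays, the other 8 genes lay below 0 after normalization. For Sod1 and the main Cat probe this was not less raw signal. Sod1 gave 24843 to 39387.5 units of Cy5 above background, beside 20638.5 to 22798.5 units of Cy3. The main Cat probe gave 2886 to 5098.5 units beside 2341 to 2594.5.

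Sod3, the secreted dismutase held in the extracellular matrix, read -1.88, -2.15, -2.00 and -1.91 in aldosterone 1, 2, 3 and 5, against -2.26, -1.96, -2.08, -2.06 and -2.15 in control 1 to 5. Aldosterone 1 and 5 were the highest of the 9 hearts, and aldosterone 2 lay among the lower controls. The difference was 0.12 (SE 0.08, 95% interval -0.05 to 0.29, limma adjusted p = 0.949; exact permutation p = 0.183). The value table gave 0.11 (SE 0.08, limma adjusted p = 0.806). Its difference was positive in all 21 alternatives tried, from 0.08 to 0.17, with a limma unadjusted p of 0.051 at the least. Some of these alternatives repeat the same difference by design.

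Cat, whose enzyme removes the peroxide that dismutases make, was read by 2 probes, both well above background on every array. The main one read -0.63, -0.53, -0.57 and -0.53 in aldosterone 1, 2, 3 and 5, against -0.86, -0.49, -0.61, -0.52 and -0.66 in control 1 to 5. The aldosterone hearts spanned a narrow range inside that of the controls, whose lowest heart was control 1. The difference was 0.06 (SE 0.08, 95% interval -0.11 to 0.23, limma adjusted p = 0.999; exact permutation p = 0.540), and without control 1 it was 0.00414. The second probe averaged -1.18 ± 0.12 with aldosterone (SD, n = 4) and -1.16 ± 0.17 in control hearts (SD, n = 5), a difference of -0.02 (SE 0.09). The probes differ in sign and both intervals include 0.

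**Figure D4:**
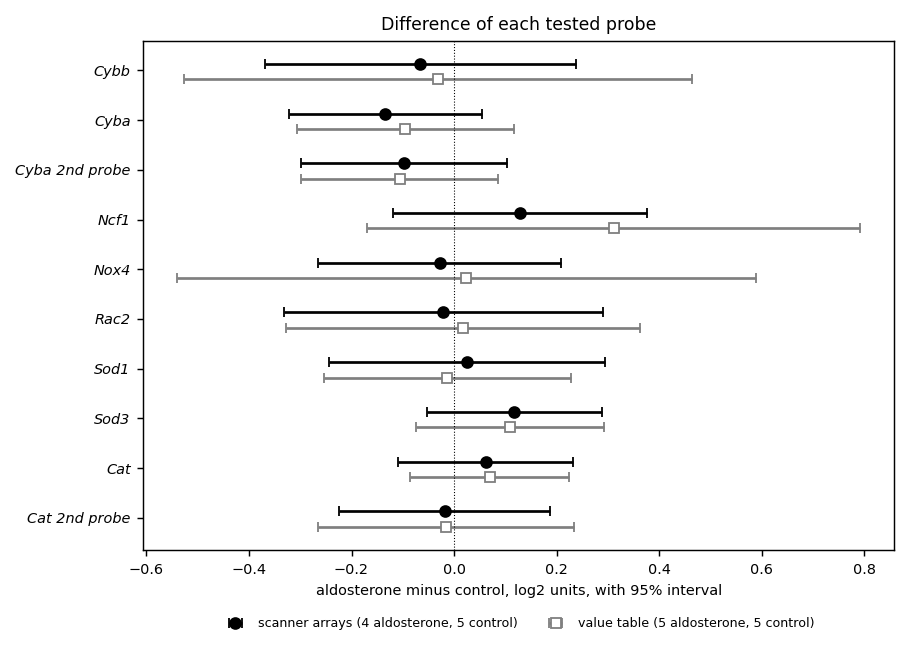
Difference of each tested probe, aldosterone minus control, in log2 units with its 95% interval, from the scanner arrays (filled points) and from the authors' value table (open squares). Every interval crosses 0, and the widest belong to Nox4, Cybb and Ncf1 in the value table.

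Differences within slides, each of which held arrays of both groups, did not settle on a direction for most members. Slide 1 held control 1, control 2 and aldosterone 1. Slides 2, 3 and 4 held 1 array of each group, so a difference there is 1 heart against 1. Over slides 1 to 4 they were -0.41, 0.32, 0.17 and -0.18 for Cybb, and -0.25, 0.47, 0.03 and -0.09 for Rac2. Sod3 gave 0.22, -0.07, 0.06 and 0.25, and Ncf1 gave -0.04, 0.29, 0.38 and 0.10, each higher on 3 of 4 slides. The main Cat probe, at 0.05, 0.08, -0.06 and 0.13, was also higher on 3 of 4. Cyba was higher on 1 slide of 4. With slide as a block the differences were -0.05 for Cybb, -0.14 for Cyba, 0.16 for Ncf1, -0.00268 for Nox4, 0.03 for Sod1, 0.12 for Sod3 and 0.05 for Cat, with 0 called.

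Genes that serve the dismutases and catalase were described from lists. Among 13 genes of copper and metal supply to the dismutases, 8 were higher and 5 lower (median 0.02). The copper transporter gene Slc31a2 differed by 0.18 (SE 0.07, limma adjusted p = 0.801), the mitochondrial carrier gene Slc25a3 by 0.11 (SE 0.11) and the metallothionein gene Mt1 by -0.07 (SE 0.10; saturated on 8 arrays). Ccs, the chaperone that loads copper into Sod1, differed by -0.04 (SE 0.06). Of 16 genes of peroxide removal, 10 were higher and 6 lower (median 0.02), with the peroxidase genes Gpx7 at 0.12 (SE 0.08), Gpx8 at 0.09 (SE 0.07) and Prdx4 at 0.13 (SE 0.10). Gpx4, at -0.06, was saturated on 7 arrays. Both Mt1 and Gpx4 are counted as lower, though saturation limits what their differences can show. Of 17 peroxisome genes, 12 were higher and 5 lower (median 0.04), with the import factors Pex13 at 0.12 (SE 0.07) and Pex6 at -0.11 (SE 0.07) and the fatty acid oxidation gene Hsd17b4 at 0.18 (SE 0.10). Of 12 other sources of superoxide or peroxide, 7 were higher and 5 lower (median 0.01), with the monoamine oxidase gene Maob at -0.19 (SE 0.14) and the nitric oxide synthase genes Nos2 at 0.12 (SE 0.09) and Nos3 at 0.05 (SE 0.07). None of these genes passed in limma in either source. The 8 members with a measured difference divided into 4 higher and 4 lower, with a median of 0.00247.

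Markers of other cells of the ventricle wall were read in the same fit. All 10 fibroblast markers were higher with aldosterone (median 0.43), with Vim at 0.48 (SE 0.11), Pcolce at 0.38 (SE 0.09) and Pdgfra at 0.28 (SE 0.07). All 5 red blood cell markers tested were higher (median 0.83), their mean ranging from -2.21 to -1.71 in aldosterone hearts and from -3.48 to -2.31 in control hearts, with the heme enzyme gene Alas2 at 0.83 (SE 0.21) and the globin genes Hbb-b2 at 1.06 (SE 0.28) and Hbb-bs at 1.24 (SE 0.37). The red cell gene Epb42 was not well above background on any array. Red blood cells hold much Sod1, Cat and Prdx2 as protein, whereas the arrays read RNA. Sod1 differed by 0.03 (SE 0.12), the main Cat probe by 0.06 (SE 0.08) and Prdx2, named after its value was seen, by -0.10 (SE 0.09). The part of red blood cells in these differences was not tested. Endothelial markers gave 3 higher and 5 lower (median -0.03), led by Cdh5 (0.15), Emcn (-0.09) and Pecam1 (0.08). Smooth muscle and pericyte markers gave 4 higher and 4 lower (median 0.00404), led by Rgs5 (0.07), Kcnj8 (-0.06) and Acta2 (0.18). Of 4 cardiomyocyte markers with a measurable difference, 3 were higher and 1 lower (median 0.23), with Nppa at 0.84 (SE 0.31; saturated on 4 arrays), Ckm at -0.13 (SE 0.12) and Ryr2 at 0.35 (SE 0.31). None passed in limma, and the part of these cell types in the member values was not tested.

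**Figure D5:**
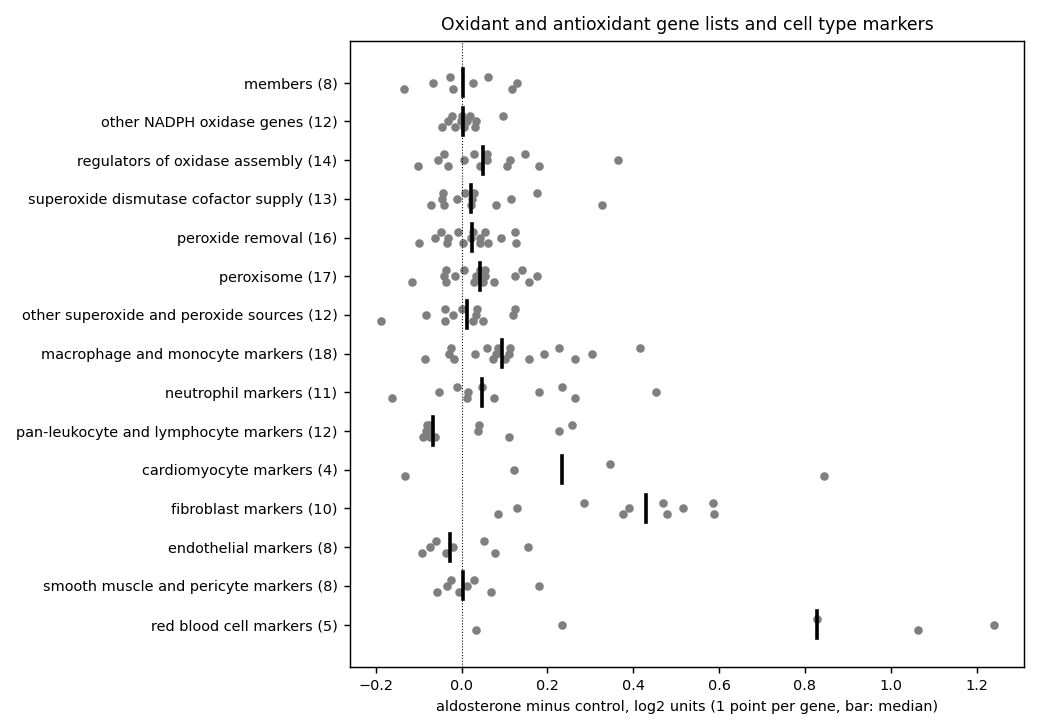
Difference of each tested gene, aldosterone minus control in log2 units, for the 9 genes' list and 14 others, 1 grey point per gene and a black bar at the list median, with the number of genes in parentheses. The oxidase, dismutase and peroxide lists have medians between 0.00247 and 0.05, while all fibroblast and red blood cell points lie to the right of 0.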

How the data were processed

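Ventricle RNA in Cy5 was read against a pooled reference in Cy3. Each deposited scanner file gives the intensity of every spot, extracted per the file headers with Agilent Feature Extraction 10.7.3.1, and flags for saturated, outlier and well-above-background spots. Per the file headers, their own ratio column is log10 (Cy5/Cy3); it served as an alternative. The table of log2 ratios that the authors deposited covers 10 hearts: against the 9 scanner files it had r of 0.996 to 1.00 and a slope of 1.00, with 82.7% to 86.6% of probes equal within 0.001, so scale and direction are known. Its column medians were 0.04, 0.08, 0.11, -0.01 and 0.04 for aldosterone 1 to 5, and 0.06, 0.06, 0.12, 0.02 and 0.02 for control 1 to 5.

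Median signals were corrected with normexp (offset 50), with local backgrounds over 20 units from the array median set to that median, then loess-normalized within arrays. Control spots had weight 0, outlier spots were left out and spots of a probe were averaged. Probes needed Cy5 flagged as above background on 4 or more arrays to be tested. The test was limma 3.58.1 (R 4.3.3), with two-sided p-values adjusted by Benjamini-Hochberg over 26877 probes, on 4 aldosterone and 5 control arrays, and again on the value table. Both the number of arrays and the spread between hearts limit the precision. Accessions were matched to RefSeq records. The fit was tested on simulated scanner arrays with 200 changed probes. It called 0% of them at a log2 change of 0.25, 64.5% at 0.5 and 95% at 1. The simulated noise was independent between probes and used each probe's own SD within groups, with a median of 0.118 over tested probes. That SD was 0.24 for Cybb, 0.25 for Rac2, 0.21 for Sod1 and 0.19 for Ncf1, and 0.115 for Sod3 and for Cat. The shares called are thus not those of single members. An absence of calls does not exclude changes of 0.25, nor in every gene a change of 0.5.

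The 9 genes and the 14 lists were chosen with earlier results of these data known. Named are all probes of the 9 genes, and in each list the 3 genes of smallest p, taking the brightest probe per gene. Cybb, Nox4 and Cat also have the 3 genes of most similar values named. Ccs, Cybc1, Prdx2, Gpx4 and the undetected markers were named after their values were seen. Some genes of the lists are not reported here. Replicate numbers do not pair the samples: deviations of same-numbered hearts correlated at 0.00553, 0.15, 0.27, -0.14 and -0.21. The labels give every heart its own mouse.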

Additional observations from a re-analysis of the deposited data

Results flagged for a closer look

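Aldosterone 1 was lowest for the main Cyba probe in the value table, at -2.56, with the other 4 aldosterone hearts between -2.35 and -2.27. Its gap to them passed Dixon's 95% critical value for 5 samples by a small margin (ratio of gap to range 0.711). It was the only heart to do so among 40 groups tested, where chance alone passes about 1 group in 20.

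The second Nox4 probe, which entered no test, gave Cy5 signal above background on aldosterone 1 (52 units) and aldosterone 2 (45.5 units), while no control array exceeded 22.5 units. In Cy5 units the main Nox4 probe did not show this: it read 39 units on aldosterone 1 and 31 units on aldosterone 2, against 31.5 to 74 units on control arrays. After normalization aldosterone 1 had the highest ratio of the 9 hearts on both probes. Aldosterone 2 had the lowest ratio on the main probe and the next to highest on the second.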

How the results depend on the processing

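Under every alternative run, 0 member probes were called, on the scanner arrays and in the value table. On their main probes, Cyba, Sod3 and Cat kept their sign in all 21 alternatives, and signs turned for the other 5 genes. The alternatives are not all separate checks. Changing the filter or taking 1 probe per gene cannot change a difference. The replicate block gave the same differences as leaving out control 4. The second Cat probe, at -0.02 in the main fit, was not followed through the alternatives. For Nox4 the value was 0.014 with no background correction, 0.026 with the scanner's own log ratio and 0.024 in the value table, and -0.107 to 0.063 leaving out each heart. For Rac2 it was 0.0173 with slide as a block and 0.0172 in the value table, and -0.114 to 0.077 leaving out each heart. For Sod1 it was -0.035 with the scanner's own log ratio, -0.013 in the value table and -0.037 to 0.128 leaving out each heart. Ncf1 was -0.017 with backgrounds as deposited, and Cybb ranged from -0.16 to 0.00540 leaving out each heart, positive without control 2. The cause was not tested.

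Over all probes, the scanner arrays gave 0 calls in limma (1642 at an unadjusted p under 0.05), 8 with the scanner's own log ratio, 2 with the replicate block, 35 in the value table and 0 to 12 leaving out each heart (12 without control 3, 12 without control 5). The value table gave 35 calls, 10 with no filter, 15 over the 9 hearts with a scanner file, 0 with the replicate block (2029 at an unadjusted p under 0.05), and 2 without aldosterone 3 to 57 without control 5. Under the replicate block, where control 4 has no scanner partner and drops out, Cybb differed by -0.16 and Cyba by -0.18, and the block changed no member's call. All scalings moved the median of all probes by under 0.1. Sod2 is limited by saturation, and Nox4 and Ncf1 by signal near background.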

Other observations

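For Cybb, Nox4 and Cat the genes with the most similar values over the 9 arrays were taken from 15202 candidates, with no test. For Cybb these were Ebp (r = 0.953), Slco2b1 (0.948) and Ugt1a6b (0.940). For Nox4 they were Fam83h (0.955), Tox4 (0.940) and Dnm1 (0.921), and for Cat they were Smox (0.957), Cope (0.945) and Atp5d (0.939). The arrays share 1 reference and lie on both sides of the first principal component, so these coefficients describe likeness in this set of arrays alone.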
